A study of Mus musculus with 6 samples.

Results

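The protease allergen papain, given for 3 days, changed chromatin accessibility in lung group 2 innate lymphoid cells (ILC2s) at 6449 regions that became more open and 2791 that became less open, of 56007 tested. The assay was ATAC-seq, which marks open DNA by the adapters that Tn5 transposase can insert there. The comparison set 2 effector libraries against 2 naive libraries, 4 of the 6 libraries in the deposited count table, over all of its 57203 regions. Effector cells came from wild-type mice given 30 µg of papain per day for 3 days, and naive cells from wild-type mice given PBS for 3 days. All mice were female unless the submitters stated otherwise, and their age and strain were not given in the sources used here. Each library held about 50000 Lin-CD25+ST2+ lung cells pooled from 2 to 4 mice, so a difference between mice of a pool is not visible. The route of papain was stated as intranasal for the 2 memory libraries, from mice rested for 2 months after the same course. Those entered the model only to estimate the spread between libraries.

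ILC2s live in the lung and respond to alarmins, above all IL-33, which is released when a protease such as papain damages the epithelium. Their receptor for IL-33 is ST2, the product of Il1rl1, and stimulation through it runs over NF-kB, MAP kinases and AP-1, the dimers of FOS, JUN and ATF family proteins that bind the sequence TGAGTCA and its variants. Activated cells secrete IL-5 and IL-13, divide and rewire their metabolism. Open regions away from gene starts include enhancers, which carry most of the difference between cell states, while starts tend to be open in many states.

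A region is written here as having risen or fallen where edgeR's quasi-likelihood test gave a Benjamini-Hochberg adjusted p under 0.05 over all tested regions. Levels are CPM, counts relative to the library's total after TMM scaling, given for effector replicates 1 and 2 and then naive replicates 1 and 2. Genes are the nearest protein-coding gene within 100 kb, which need not be the gene a region acts on. Coordinates are those of the deposited table for mm10, for which a count from 0 or 1 is not given.

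Of the tested regions 6449 rose (11.5%) and 2791 fell (4.98%) in effector cells. Among all tested regions, both effector libraries lay above both naive libraries at 31.2% and below them at 27.6%. Regions that rose took up 8.42% and 7.23% of counts in effector cells, against 2.99% and 3.31% in naive cells. Regions that fell took up 9.97% and 10.9% in effector cells, against 14.4% and 14.1% in naive cells. A larger share of cells open at a region and more opening in each cell cannot be told apart in such pools. The split depended on scaling. Rises made up 69.8% of calls with TMM over all regions and 82.5% by total counts alone. They made up 92.1% where TMM used the 20% most open regions, which moved the median of all regions by 0.20 on the log2 scale. Single libraries mattered too. Without effector replicate 1 the counts were 2530 rises and 377 falls, and without naive replicate 1 they were 4014 and 828. A call in the same direction under all of 9 other settings (4 scalings, each of the 4 libraries left out, and DESeq2) was kept by 2285 of the rises and 233 of the falls. Regions named below kept it unless the text says otherwise.

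The promoters of starts that rose held the AP-1 word more often than those of other starts. A region counts as a start if it lies within 1 kb of an annotated protein-coding start, and 10666 were tested, of which 217 rose (2.03%) and 917 fell (8.6%). The promoter window ran from 250 bases before to 50 after each start, and each window was searched on both strands for short words. The AP-1 word TGANTCA stood in 38 of the 217 windows at starts that rose (17.5%), against 37 of the 917 at starts that fell (4.03%) and 430 of the 9532 at starts not called (4.51%). Over all 21263 windows of the table the share was 6.99%. The cyclic AMP response word TGACGTCA went the other way, in 0 of 217 windows at starts that rose, 54 of 917 at starts that fell (5.89%) and 299 of 9532 at starts not called (3.14%). This word contains a CpG, and windows that rose had a median of 10 CpG, against 21 at starts that fell and 21 at those not called. Its shares were not read within groups of GC content or under other settings, so an effect of base composition was not tested. AP-1 dimers and the CREB and ATF proteins that bind the cyclic AMP word are all basic leucine zipper factors, and the words have the same TGA and TCA arms with different spacing.

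These windows show the AP-1 word, in capitals, at the 4 starts that rose with the smallest adjusted p among those that kept their call under every setting and whose window lies inside the open region. Sequences are from RefSeq (GRCm38.p6, the mm10 assembly), written 5′ to 3′ along the gene's strand, and were read from the reference and not from the libraries.
Adgrg1 (chr8:94984149-94984448, + strand): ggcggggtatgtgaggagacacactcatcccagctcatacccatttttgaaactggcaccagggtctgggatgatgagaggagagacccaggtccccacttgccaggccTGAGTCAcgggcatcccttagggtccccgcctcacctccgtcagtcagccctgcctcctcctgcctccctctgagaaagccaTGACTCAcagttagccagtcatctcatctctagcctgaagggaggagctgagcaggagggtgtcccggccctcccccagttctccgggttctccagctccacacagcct
Bpifc (chr10:86011811-86012110, - strand): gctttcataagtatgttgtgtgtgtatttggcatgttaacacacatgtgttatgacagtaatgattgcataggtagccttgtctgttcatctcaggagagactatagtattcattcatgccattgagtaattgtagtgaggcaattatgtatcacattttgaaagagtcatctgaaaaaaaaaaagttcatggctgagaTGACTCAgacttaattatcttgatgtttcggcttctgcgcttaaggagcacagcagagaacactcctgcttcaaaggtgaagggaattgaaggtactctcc
Dclk1 (chr3:55461478-55461777, + strand): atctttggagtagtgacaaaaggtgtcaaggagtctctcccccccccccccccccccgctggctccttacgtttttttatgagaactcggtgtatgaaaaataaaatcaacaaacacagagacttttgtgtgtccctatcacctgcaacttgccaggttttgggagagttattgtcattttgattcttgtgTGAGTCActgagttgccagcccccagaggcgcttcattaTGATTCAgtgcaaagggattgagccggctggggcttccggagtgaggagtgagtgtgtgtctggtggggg
Rdh1 (chr10:127759513-127759812, + strand): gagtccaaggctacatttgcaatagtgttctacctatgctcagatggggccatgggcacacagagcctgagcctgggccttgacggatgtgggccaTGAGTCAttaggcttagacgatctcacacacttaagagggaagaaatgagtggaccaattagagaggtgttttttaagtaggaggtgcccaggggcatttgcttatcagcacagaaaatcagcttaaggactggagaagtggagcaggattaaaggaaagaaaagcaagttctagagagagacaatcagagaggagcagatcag
Adgrg1 and Dclk1 each hold the word 2 times, and Bpifc and Rdh1 a single time. The next windows show the cyclic AMP response word, in capitals, at the 3 starts that fell, chosen in the same way.
Lekr1 (chr3:65665978-65666277, + strand): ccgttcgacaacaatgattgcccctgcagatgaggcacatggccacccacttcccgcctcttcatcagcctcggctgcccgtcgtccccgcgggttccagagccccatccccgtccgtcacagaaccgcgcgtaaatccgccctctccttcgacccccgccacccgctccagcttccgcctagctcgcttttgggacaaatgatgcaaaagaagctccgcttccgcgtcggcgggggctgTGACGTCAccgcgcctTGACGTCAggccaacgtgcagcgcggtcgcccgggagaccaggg
Gtpbp10 (chr5:5559492-5559791, - strand): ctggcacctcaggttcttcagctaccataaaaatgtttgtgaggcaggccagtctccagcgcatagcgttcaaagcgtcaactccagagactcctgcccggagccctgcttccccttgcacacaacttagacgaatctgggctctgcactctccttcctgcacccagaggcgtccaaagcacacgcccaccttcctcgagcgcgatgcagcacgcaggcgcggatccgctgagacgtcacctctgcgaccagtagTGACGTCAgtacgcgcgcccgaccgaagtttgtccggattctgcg
Osgepl1 (chr1:53313374-53313673, + strand): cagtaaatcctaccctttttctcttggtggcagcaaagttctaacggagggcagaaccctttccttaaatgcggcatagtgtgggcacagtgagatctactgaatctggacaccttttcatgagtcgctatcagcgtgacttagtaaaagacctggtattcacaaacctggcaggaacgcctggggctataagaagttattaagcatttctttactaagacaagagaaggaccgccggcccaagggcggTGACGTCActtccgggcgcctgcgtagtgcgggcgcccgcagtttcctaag
Lekr1 holds this word 2 times, and the other windows a single time.

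At the Adgrg1 start, of an adhesion G protein-coupled receptor, levels were 19.9 and 12.7 CPM in the effector libraries, against 2.24 and 1.41 CPM in the naive libraries (log2 fold change 3.18 ± 0.35 SE, adjusted p = 2.35e-05). The Bpifc start, of a lipid-binding protein of the bactericidal permeability-increasing family, had 11.2 and 5.15 CPM in the effector libraries, against 0.96 and 0.587 CPM in the naive libraries (log2 fold change 3.41 ± 0.47 SE, adjusted p = 0.000128). Dclk1, a microtubule-associated kinase, had 13.2 and 10.7 CPM in the effector libraries, against 2.32 and 2.99 CPM in the naive libraries (log2 fold change 2.15 ± 0.31 SE, adjusted p = 0.000186) at its start. Rdh1, a retinol dehydrogenase, had 9.67 and 6.13 CPM in the effector libraries, against 1.6 and 1.35 CPM in the naive libraries (log2 fold change 2.42 ± 0.37 SE, adjusted p = 0.000353). At all 4 the lower effector library stood well above the higher naive library, and naive levels were under 3 CPM. The falls were smaller, from higher naive levels. The Lekr1 start had 35.6 and 43.1 CPM in the effector libraries, against 69.9 and 63.6 CPM in the naive libraries (log2 fold change -0.76 ± 0.14 SE, adjusted p = 0.00116). Gtpbp10, a GTPase of mitochondrial ribosome assembly, had 14.9 and 18.2 CPM in the effector libraries, against 34.3 and 28.9 CPM in the naive libraries (log2 fold change -0.93 ± 0.18 SE, adjusted p = 0.00186), and Osgepl1, a mitochondrial tRNA-modifying enzyme, had 15.2 and 15.7 CPM in the effector libraries, against 27.6 and 25.5 CPM in the naive libraries (log2 fold change -0.78 ± 0.17 SE, adjusted p = 0.00428).

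Windows at starts that rose also held fewer G and C bases, with a median of 56.7% and 10 CpG, against 60.7% and 21 CpG at starts that fell and 62.0% and 21 CpG at starts not called. The AP-1 share was therefore read within 5 groups of windows ranked by GC content. In the lowest group the word stood in 22 of 90 windows that rose (24.4%), 18 of 218 that fell (8.26%) and 166 of 1928 not called (8.61%). In the second group it stood in 8 of 38 that rose (21.1%), 6 of 186 that fell (3.23%) and 89 of 1873 not called (4.75%). The fourth held 3 of 31 windows that rose (9.68%), against 70 of 2002 not called (3.5%), and the highest group held 0 of 30. Among starts that kept their call under every setting, 13 of 38 rises (34.2%) and 3 of 29 falls (10.3%) held the word. Across the other settings the share at starts that rose ran between 11.8% and 31.8%, and that at starts that fell between 3.37% and 5.01%.

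**Figure D1:**
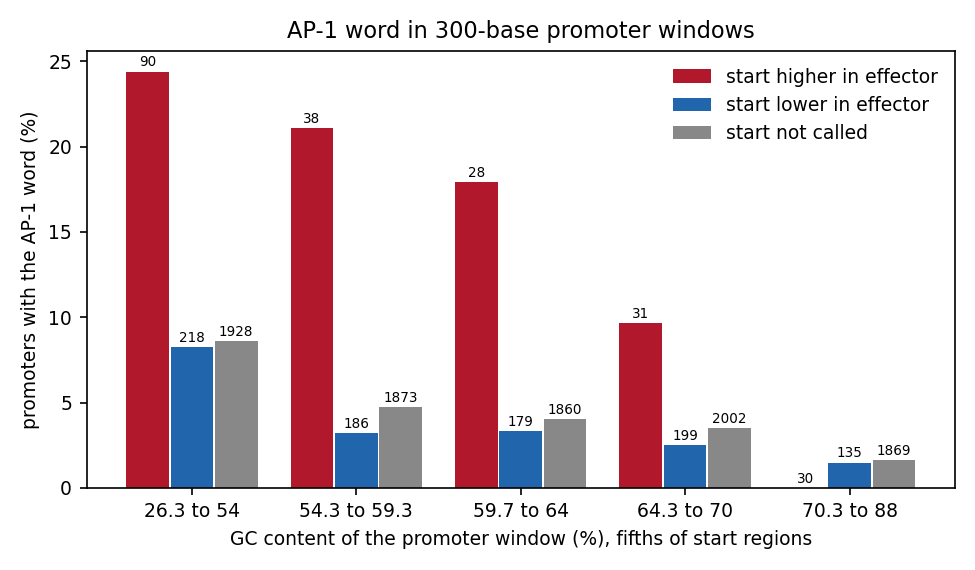
Bars give the share (%) of promoter windows with the AP-1 word on either strand, in 5 groups by GC content (%, lowest left), for starts higher in effector, lower in effector or not called; the number above a bar counts its windows. In the 3 lowest groups the share at starts that rose was 24.4%, 21.1% and 17.9%, against 8.61%, 4.75% and 4.03% at starts not called.

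Other words were counted in the same windows, with no test of the shares. The RUNX word TGTGGTT stood in 7.83% of windows that rose, 4.03% that fell and 3.36% not called. A bZIP MAF word, TGCTGAC, stood in 7.37% of windows that rose, 4.25% that fell and 3.28% not called. The GATA word AGATAA, of the factor family of the ILC2 regulator GATA3, stood in 6.45% of windows that rose, 6.11% that fell and 5.71% not called. The longer ETS word ACCGGAAG was in 0.0% of windows that rose and 5.78% that fell, against 4.42% not called. KLF and SP boxes (GGGCGGGG) stood in 22.6% of windows that rose, 32.7% that fell and 36.0% not called. The longer ETS word and the KLF and SP word contain a CpG, and their shares were not read within groups of GC content. A match is a run of letters and not a bound site. No genome sequence was at hand for distal regions, so their words were not read.

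Gains and losses differed in place, width and starting level. Regions that rose had a median width of 1090 bases and a median level of 6.8 CPM in effector against 1.81 CPM in naive cells, and 82.8% of them changed at least 2-fold. Regions that fell had a median width of 1493 bases and median levels of 26.7 CPM in effector against 40.5 CPM in naive cells, with 13.9% past 2-fold. Regions of low level need a larger fold to be called, so these shares past 2-fold are a description. Only 3.36% of the rises but 32.9% of the falls lay at starts, against 19.0% of all tested regions. Inside genes 13.6% rose and 3.66% fell, outside genes 13.6% rose and 4.23% fell, and with no gene within 100 kb 15.4% rose and 7.75% fell. Starts were the single class with more falls than rises, but TMM on the most open regions turned this round to 433 rises and 140 falls, a loess offset gave 231 and 170, and the fit without naive replicate 1 gave 127 and 92.

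In 5 groups of regions ranked by naive level, rises went down in steps over 28.5%, 10.7%, 9.75%, 7.2% and 1.47% of regions, lowest level first, and falls went up over 0.107%, 0.67%, 2.04%, 6.24% and 15.9%. The same naive libraries set the groups and the contrast, so this order is a description.

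**Figure D2:**
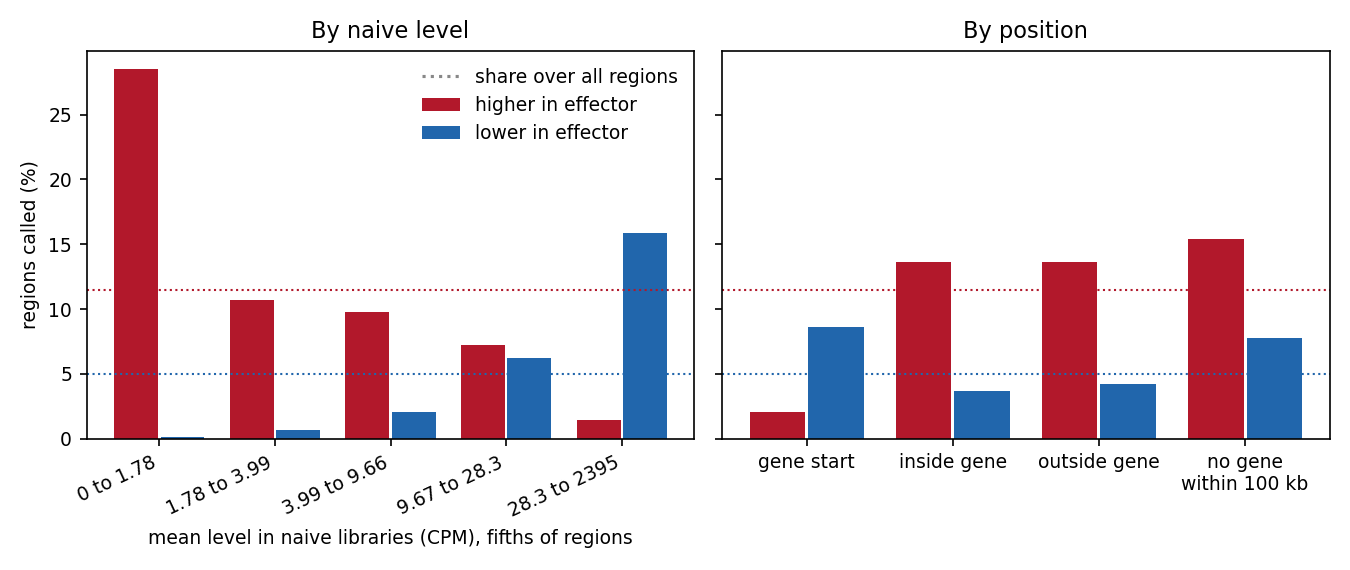
Bars give the percent of tested regions called higher or lower in effector than naive libraries, in 5 groups by naive level (CPM, left) and by position (right); dotted lines mark 11.5% and 4.98% over all regions. Rises reached 28.5% in the least open group, and falls 15.9% in the most open group and 8.6% at gene starts.

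Of the 12 largest gains in level several lay near genes of immune signalling. A region 1.3 kb from Arid5a, which encodes an RNA-binding protein that stabilises inflammatory mRNAs, had 96.6 and 73.6 CPM in the effector libraries, against 24.8 and 20.2 CPM in the naive libraries (chr1:36325337-36326602, log2 fold change 1.92 ± 0.16 SE, adjusted p = 3.01e-06). St3gal1, a sialyltransferase of O-glycans, gained inside the gene, with 97.9 and 83 CPM in the effector libraries, against 35.5 and 28.2 CPM in the naive libraries (chr15:67128730-67130758, log2 fold change 1.51 ± 0.15 SE, adjusted p = 9.55e-06). In both regions the lower effector library was more than 2-fold above the higher naive library. A region 23.6 kb from Ccr1, a receptor of inflammatory chemokines, had 114 and 75.1 CPM in the effector libraries, against 39.8 and 35.3 CPM in the naive libraries (chr9:123935468-123938514, log2 fold change 1.33 ± 0.17 SE, adjusted p = 8.98e-05). Ptpn3, a protein tyrosine phosphatase, had 84.4 and 60.9 CPM in the effector libraries, against 20.2 and 18.2 CPM in the naive libraries in an intragenic region (chr4:57306009-57307145, log2 fold change 1.92 ± 0.17 SE, adjusted p = 3.78e-06). A region 18.2 kb from Tnfsf4, the OX40 ligand with which ILC2s costimulate T cells, had 77.6 and 53 CPM in the effector libraries, against 18.4 and 19 CPM in the naive libraries (chr1:161375251-161377222, log2 fold change 1.80 ± 0.17 SE, adjusted p = 9.55e-06). Further gains of this size lay inside Plekhg3 (log2 1.47, adjusted p = 2.29e-05), Ehd1, an endosomal recycling protein (114 and 86.3 CPM in effector and 51.4 and 48.8 CPM in naive libraries) and Sv2c (log2 0.89, adjusted p = 0.000784). Of the 12 largest gains, Smim3 lost its call without effector replicate 1 (adjusted p = 0.0903), and Panx1 and Sgms1 lost theirs without effector replicate 1, naive replicate 1 or naive replicate 2, with adjusted p between 0.0576 and 0.224.

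The 12 largest losses in level were at most 0.59 in size on the log2 scale, and none kept its call under every setting. The largest lay inside Zbtb20, a transcriptional repressor, with 183 and 216 CPM in the effector libraries, against 310 and 290 CPM in the naive libraries (log2 fold change -0.59 ± 0.13 SE, adjusted p = 0.00544). Next came the starts of Ifrd1 with 224 and 234 CPM in effector and 331 and 326 CPM in naive libraries (log2 -0.52, adjusted p = 0.00658) and of Hjurp, the chaperone of the centromeric histone CENP-A, with 191 and 206 CPM in effector and 307 and 280 CPM in naive libraries (log2 -0.56, adjusted p = 0.00399). All 3 lost the call with a loess offset, without effector replicate 1 and without naive replicate 1, with adjusted p between 0.0568 and 0.215.

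Among starts that rose, Adamts13, the protease that cleaves von Willebrand factor, had 21.3 and 14.2 CPM in the effector libraries, against 2.4 and 2.23 CPM in the naive libraries (chr2:26972738-26974573, log2 fold change 2.94 ± 0.29 SE, adjusted p = 1.08e-05). Zbtb32 encodes a zinc finger repressor first described as a repressor of GATA factors, and its start had 9.02 and 8.53 CPM in the effector libraries, against 0.48 and 0.47 CPM in the naive libraries (chr7:30592968-30593605, log2 fold change 4.19 ± 0.52 SE, adjusted p = 6.41e-05), on 14 naive counts. A second Zbtb32 region, inside the gene, went the same way, with 17.9 and 11.9 CPM in effector and 0.48 and 0.587 CPM in naive libraries (log2 4.76, adjusted p = 3.4e-06). Gng4, a G protein gamma subunit, started from a more open level, with 34.7 and 30.1 CPM in the effector libraries, against 11 and 10.8 CPM in the naive libraries (chr13:13783400-13785879, log2 fold change 1.57 ± 0.19 SE, adjusted p = 4.81e-05). The starts of Sun1, which links the nucleus to the cytoskeleton (log2 3.15, adjusted p = 2.35e-05), the kallikrein Klk9 (log2 3.35, adjusted p = 3.65e-05), Mustn1 (log2 1.93, adjusted p = 0.000161) and interferon epsilon, Ifne (log2 2.26, adjusted p = 0.000161), also rose.

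Among starts that fell, the region at Lor, which encodes the skin protein loricrin, had 63.9 and 73.5 CPM in the effector libraries, against 150 and 133 CPM in the naive libraries (chr3:92080353-92083183, log2 fold change -1.04 ± 0.13 SE, adjusted p = 6.68e-05). Cdk20, a cyclin-dependent kinase, had 51.9 and 54.2 CPM in the effector libraries, against 103 and 93.8 CPM in the naive libraries (chr13:64431865-64433184, log2 fold change -0.89 ± 0.14 SE, adjusted p = 0.000309). Slc39a10, a zinc importer, had 102 and 105 CPM in the effector libraries, against 175 and 162 CPM in the naive libraries (chr1:46852354-46854652, log2 fold change -0.70 ± 0.12 SE, adjusted p = 0.000925). In all 3 both effector libraries lay below both naive libraries. Starts also fell at Gprin3 (log2 -0.97, adjusted p = 0.000592), Echdc1 (log2 -0.89, adjusted p = 0.000567), Tusc1 (log2 -0.77, adjusted p = 0.000888), Igsf9 (log2 -0.77, adjusted p = 0.000899), Saysd1 (log2 -0.74, adjusted p = 0.000735) and Sdhaf3, a succinate dehydrogenase assembly factor (log2 -0.75, adjusted p = 0.00095).

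**Figure D3:**
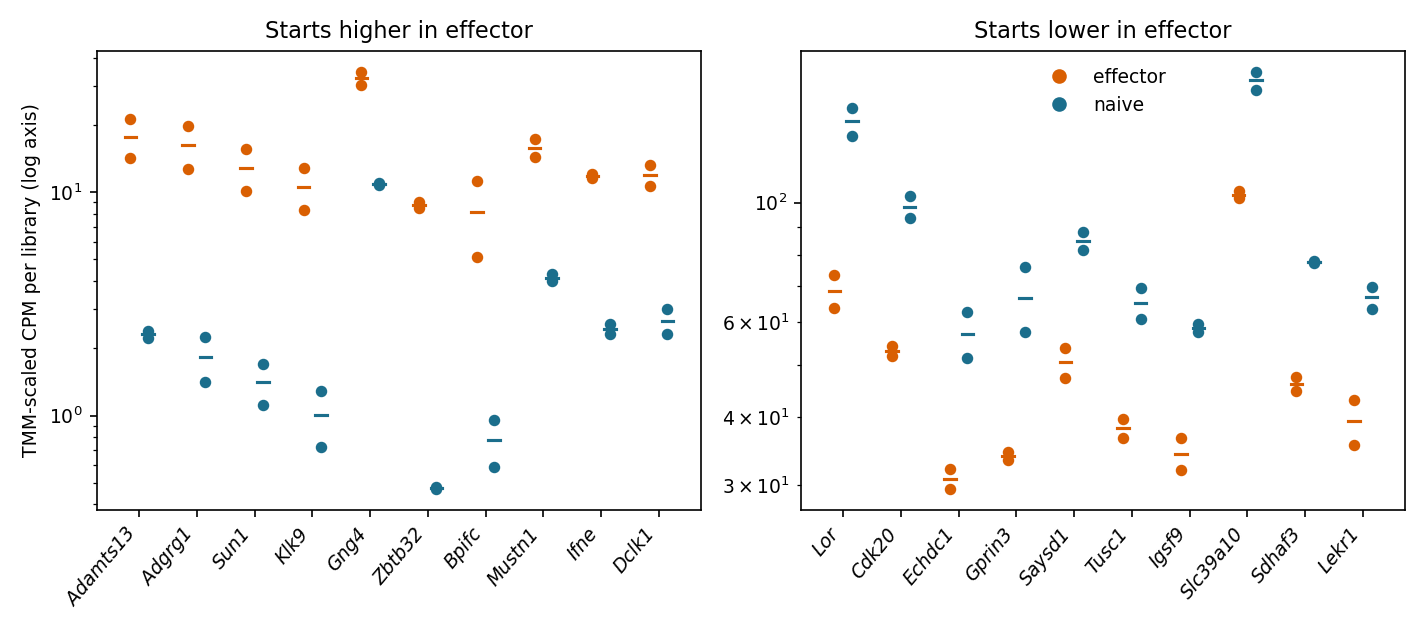
Points give TMM-scaled CPM (log axis) in each library for the 10 starts with the smallest adjusted p in each direction, effector left and naive right of each pair, with a bar at the mean of 2 libraries. At Zbtb32 the effector libraries were at 9.02 and 8.53 CPM, against 0.48 and 0.47 CPM in naive libraries; at Lor they were at 63.9 and 73.5 CPM, against 150 and 133 CPM.

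Ranked by fold, the largest rises lay at regions nearly closed in naive cells. Such a ranking favours regions of low naive level, so this is a description. Inside E130308A19Rik levels were 27.6 and 22.9 CPM in the effector libraries, against 0.96 and 1.29 CPM in the naive libraries (chr4:59682020-59683557, log2 fold change 4.46 ± 0.29 SE, adjusted p = 7.29e-07). A region inside Abcb8, a mitochondrial transporter, had 28.3 and 19 CPM in the effector libraries, against 0.64 and 1.47 CPM in the naive libraries (chr5:24404613-24405926, log2 fold change 4.42 ± 0.35 SE, adjusted p = 1.77e-06). Rptor, the scaffold of mTOR complex 1, had 16.1 and 8.59 CPM in effector and 0.64 and 0.705 CPM in naive libraries inside the gene (chr11:119817071-119818256, log2 fold change 4.17 ± 0.42 SE, adjusted p = 1.12e-05). At 63.3 kb from Cd47, the signal that protects cells from phagocytosis, levels were 16.2 and 10.7 CPM in effector and 1.04 and 0.705 CPM in naive libraries (log2 fold change 3.96 ± 0.37 SE, adjusted p = 7.22e-06). At 52.9 kb from Azin1, an inhibitor of antizyme that raises polyamine synthesis, they were 13 and 9.51 CPM in effector and 0.8 and 0.705 CPM in naive libraries (log2 fold change 3.90 ± 0.37 SE, adjusted p = 9e-06). All 5 had 20 to 34 counts over both naive libraries. The largest falls had low levels in both groups, as inside Zkscan2 (0.519 and 0.458 CPM in effector and 3.2 and 1.88 CPM in naive libraries, log2 fold change -2.35 ± 0.49 SE, adjusted p = 0.0032).

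A region that rose lay nearest to 3544 of the 15269 genes with a tested region, and 561 genes had 3 or more, while 83 of the 2104 genes with a fall had 3 or more. Etv6, an ETS family repressor, had the most, with 19 of its 39 regions risen by 0.58 to 4.25 on the log2 scale and none fallen. Of the Etv6 rises 6 kept their call under every setting. Its summed level was 662 and 508 CPM in effector libraries, against 480 and 435 CPM in naive libraries. Runx2, a RUNX factor best known from bone, had 11 of 29 regions risen (6 kept), with summed levels of 454 and 400 CPM in effector and 290 and 313 CPM in naive libraries. Lpp had 14 of 45 (4 kept), Bbs9 13 of 25 (8 kept), and Asap1, an ARF GTPase-activating protein, 11 of 22 (6 kept). Itpr1, the endoplasmic calcium release channel, had 11 of 40 risen (4 kept), and Elmo1, a Rac activator, 11 of 24 (5 kept).

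Both directions met at 593 of the 15269 genes with a tested region. Bach2, a bZIP repressor that restrains effector differentiation of lymphocytes, had 10 regions risen (7 kept) and 5 fallen (none kept) of 41. A region 0.4 kb beyond the gene had 44.8 and 32.1 CPM in the effector libraries, against 9.28 and 9.98 CPM in the naive libraries (chr4:32586554-32588914, log2 fold change 1.99 ± 0.2 SE, adjusted p = 1.12e-05), while another 88.5 kb off had 96 and 88.8 CPM in effector and 146 and 136 CPM in naive libraries (log2 -0.61, adjusted p = 0.00557), a call lost without effector replicate 2 or naive replicate 1, with adjusted p of 0.0519 and 0.0509. Summed over the gene the levels were close, at 1245 and 1111 CPM in effector and 1242 and 1191 CPM in naive libraries. Of the 908 genes whose start fell, 198 had a risen region elsewhere and 128 another fall. Among all 15269 genes 3544 had a rise and 2104 a fall, counted at starts and elsewhere. The shares among genes with a fallen start were thus close to those of all genes. Genes with the most falls were Pard3, a cell polarity protein, with 6 fallen and 4 risen of 37 (no fall kept), and Pde7b, a cyclic AMP phosphodiesterase, with 6 fallen and none risen of 33 (3 falls kept). Rgs2, a regulator of Gq signalling, had 5 of 11 fallen and none risen (2 kept), with summed levels of 369 and 271 CPM in effector and 567 and 373 CPM in naive libraries. Much of these sums came from a region inside the gene that was not called (log2 fold change -0.59 ± 1.08 SE). Its mean levels were 110 CPM in effector and 166 CPM in naive libraries.

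**Figure D4:**
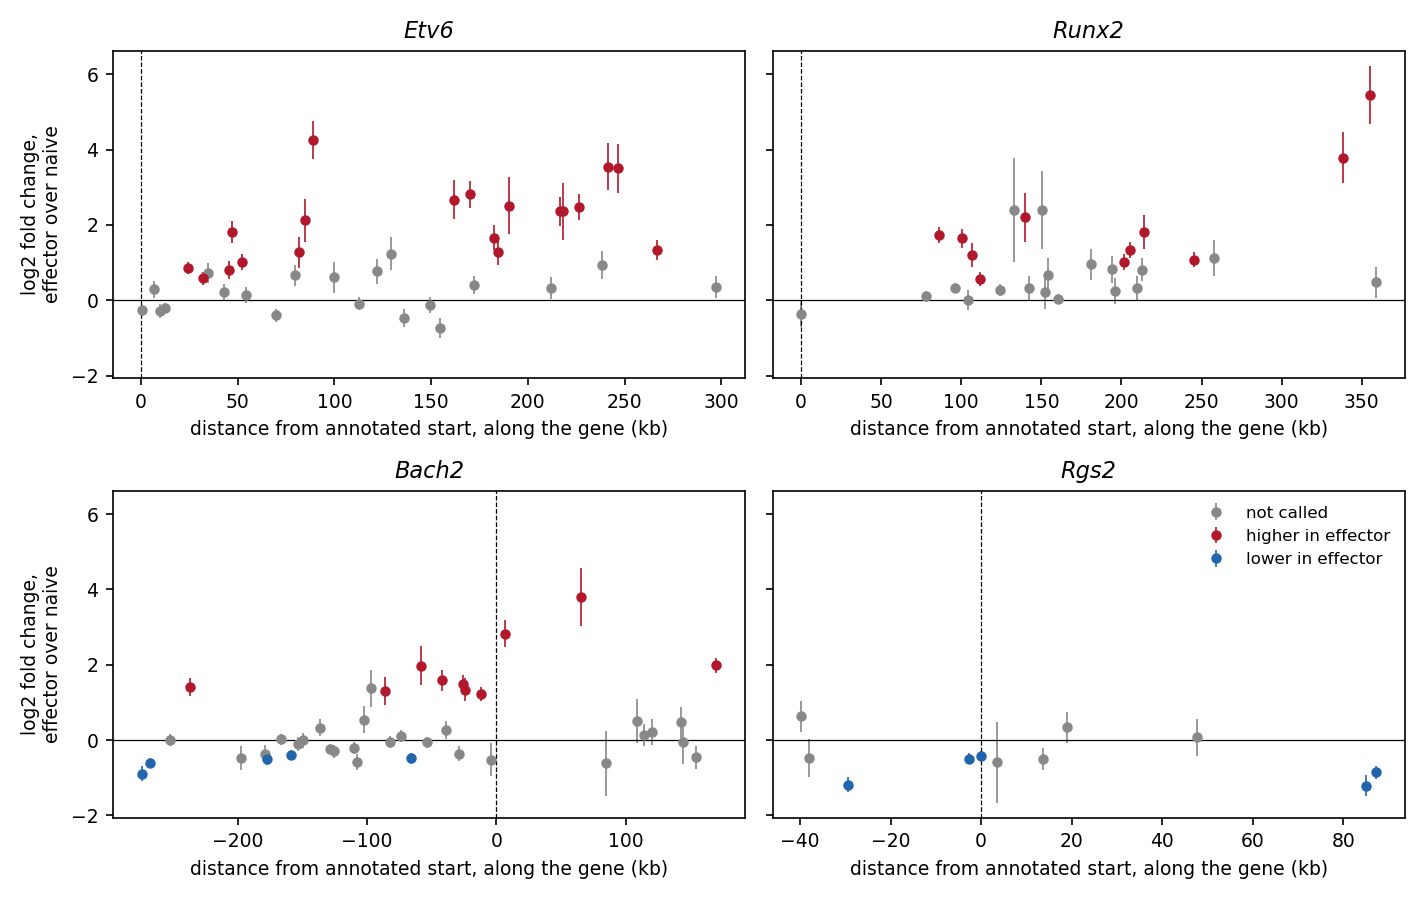
Points give the log2 fold change (effector over naive, bars ± SE) of every tested region assigned to each gene, by distance (kb) along the gene from the annotated start of the RefSeq table, which for Bach2 lies inside the gene. Etv6 had 19 of 39 regions higher, Runx2 11 of 29, Bach2 10 higher and 5 lower of 41, and Rgs2 5 of 11 lower.

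Runs of neighbouring regions rose together. There were 31 runs of 5 or more consecutive tested regions that all rose, and 2 such runs that all fell. The longest held 9 regions over 94.4 kb on chromosome 14 (chr14:61769661-61864109), where the annotation has only 2 long noncoding RNAs, Gm35247 and Gm41171, with summed levels of 117 and 103 CPM in effector and 42.9 and 49.1 CPM in naive libraries. At Tnfsf4 8 risen regions in a row spanned 79.9 kb, with summed levels of 200 and 140 CPM in effector, against 69 and 69.9 CPM in naive libraries. Another 8 lay over a span that overlaps Dusp22 and Irf4, a factor of lymphocyte activation, with 132 and 105 CPM in effector and 69.1 and 67.4 CPM in naive libraries. At St3gal1 7 regions in a row rose, with 248 and 193 CPM in effector and 86.4 and 65.4 CPM in naive libraries. Rptor held a run of 6 and Adgrg1 a run of 5, which included the promoter printed above. Within these 6 runs 3 to 5 regions kept their call under every setting.

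The fallen runs were 8 regions at Firre (1 kept under every setting) and 5 at a zinc finger gene cluster on chromosome 13 (none kept). Firre, a long noncoding RNA gene of chromosome X whose repeats anchor X chromosome structure, held 18 tested regions, of which 13 fell and none rose, by 0.38 to 0.88 on the log2 scale over all 18. Summed levels were 438 and 457 CPM in effector libraries, against 805 and 631 CPM in naive libraries. The falls numbered 2 without effector replicate 1, 2 without naive replicate 1 and 6 with TMM on the most open regions. Chromosome X as a whole had 83 of 1357 regions risen (6.12%) and 128 fallen (9.43%), but more rises than falls where TMM used the most open regions (109 and 37), by total counts (91 and 67), without effector replicate 1 (25 and 15) and without naive replicate 1 (51 and 28). Its start regions had a median log2 fold change of -0.31, against -0.15 on the other chromosomes. The difference between these medians lay between -0.20 and -0.13 under every other setting. Start regions on X summed to 8657 and 8664 CPM in effector libraries, against 11406 and 10392 CPM in naive libraries. At Xist, whose RNA coats the inactive X, a region of the gene had 34.7 and 42.9 CPM in effector libraries, against 72.7 and 62.6 CPM in naive libraries (chrX:103480981-103482450, log2 fold change -0.80 ± 0.16 SE, adjusted p = 0.0022), a call lost without effector replicate 1 (adjusted p = 0.0542). Chromosome Y had 10 tested regions, all between 90.7 and 90.8 Mb, at the end that holds the pseudoautosomal sequence shared with X, and 9 of them rose (7 kept). They summed to 67.8 and 78.3 CPM in effector libraries, against 13.7 and 13.2 CPM in naive libraries. Firre, Xist and the Y regions were picked after their values were seen. Whether the sex of the mice in the pools differed was not tested.

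Gene lists put these regions into pathways. Each list was read by the share of its regions that rose and fell against 11.5% and 4.98% over all tested regions, and by its median log2 fold change, which was 0.00 over all regions. Among those shown the share that rose ran between 6.58% for housekeeping genes and 22.6% for chemokines. Fewer rises were called with a library left out, over all regions and in the TNF superfamily, BCL2 family and RNA decay lists. Of the rises in these lists 11, 9 and 5 kept their call under every setting. Without effector replicate 1 the list medians were 0.08, 0.06 and 0.05 on the log2 scale, against 0.01 over all regions. Without naive replicate 1 they were 0.09, 0.22 and 0.11, against 0.01.

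**Figure D5:**
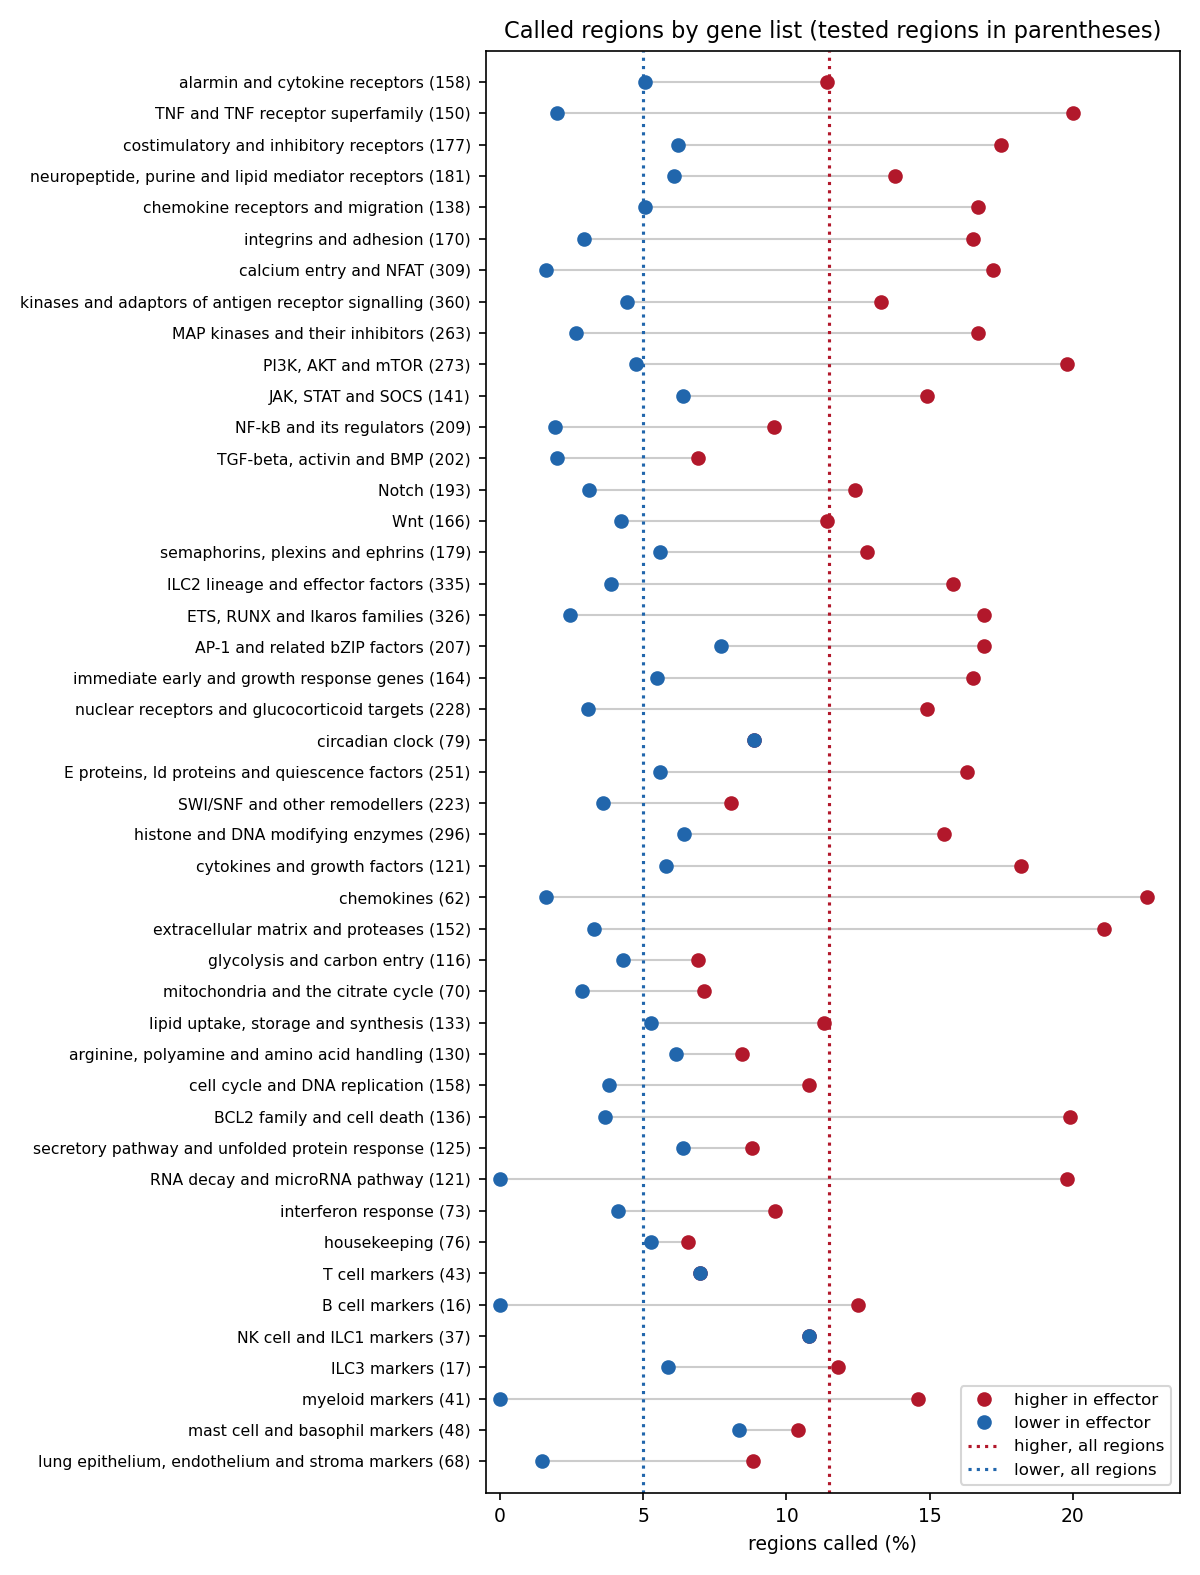
Points give the percent of tested regions that were higher or lower in effector libraries for each gene list, with the number of regions in parentheses; dotted lines mark 11.5% and 4.98% over all regions, and only the blue point shows where both shares are equal. Chemokines (22.6%) and extracellular matrix and proteases (21.1%) had the highest shares of rises at the 100 kb assignment with all 4 libraries, and the NK cell and ILC1 markers (10.8%) and the circadian clock (8.86%) those of falls.

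Of 158 regions at 28 alarmin and cytokine receptor genes 18 rose (11.4%) and 8 fell (5.06%), a share like that of all regions. Il1rl1, the IL-33 receptor by which the cells were also sorted, had 51.1 and 31.4 CPM in the effector libraries, against 13.6 and 14.7 CPM in the naive libraries inside the gene (chr1:40412390-40414027, log2 fold change 1.54 ± 0.21 SE, adjusted p = 0.000155). Il4ra, the receptor chain for IL-4 and IL-13, had 10.1 and 6.99 CPM in the effector libraries, against 1.12 and 1.82 CPM in the naive libraries at 8.3 kb (log2 fold change 2.51 ± 0.39 SE, adjusted p = 0.000346). Ifnar2, a chain of the type I interferon receptor, had 15.7 and 10.9 CPM in effector and 2.72 and 2.94 CPM in naive libraries (log2 fold change 2.23 ± 0.32 SE, adjusted p = 0.0002). The Il1rap start, of the coreceptor of ST2, had 56.3 and 59.6 CPM in effector and 95.8 and 82.3 CPM in naive libraries (log2 -0.62, adjusted p = 0.00397), a fall lost without effector replicate 1 or naive replicate 1 (adjusted p = 0.059 and 0.0636).

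The TNF and TNF receptor superfamily had 30 of 150 regions risen and 3 fallen, with 11 rises kept under every setting and a median of 0.17. Beside Tnfsf4, Tnfrsf8, which encodes CD30, had 9.08 and 7.21 CPM in the effector libraries, against 0.48 and 0.352 CPM in the naive libraries inside the gene, on 12 naive counts (chr4:145310667-145311832, log2 fold change 4.29 ± 0.47 SE, adjusted p = 2.29e-05). A region 36.8 kb from Tnfsf8, the CD30 ligand, had 22.4 and 15.3 CPM in the effector libraries, against 8.08 and 6.52 CPM in the naive libraries (log2 fold change 1.37 ± 0.23 SE, adjusted p = 0.000678). A region inside the receptor gene and a region nearest to the ligand gene thus both rose. Costimulatory and inhibitory receptors had 31 of 177 regions risen and 11 fallen. Havcr2, the inhibitory receptor TIM-3, had 33.7 and 26.7 CPM in the effector libraries, against 8.08 and 8.87 CPM in the naive libraries (chr11:46461352-46462461, log2 fold change 1.83 ± 0.2 SE, adjusted p = 2.19e-05). Ctla4, which competes with CD28 for its ligands, had 35.2 and 27.7 CPM in effector and 9.92 and 11.9 CPM in naive libraries at 9.2 kb (log2 fold change 1.52 ± 0.2 SE, adjusted p = 8.57e-05). Cd226, an activating receptor, had 10.7 and 6.64 CPM in effector and 2 and 0.939 CPM in naive libraries (log2 fold change 2.59 ± 0.43 SE, adjusted p = 0.000644). Cd86, a ligand of CD28 and CTLA-4, went the other way inside the gene, with 34.3 and 38 CPM in effector and 57.6 and 60 CPM in naive libraries (log2 fold change -0.70 ± 0.14 SE, adjusted p = 0.00194).

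Receptors for neuropeptides, purines and lipid mediators, through which nerves and tissue set ILC2 activity, had 25 of 181 regions risen and 11 fallen. Vipr2, a receptor of vasoactive intestinal peptide, had 34.7 and 25.5 CPM in effector and 10.2 and 12 CPM in naive libraries inside the gene (log2 fold change 1.43 ± 0.19 SE, adjusted p = 0.00012). Nt5e, the ectoenzyme CD73 that makes adenosine, had 65.1 and 53 CPM in effector and 25.4 and 24.5 CPM in naive libraries at 53.3 kb (log2 fold change 1.24 ± 0.17 SE, adjusted p = 0.000142), whereas 18.9 kb from Adora2a, a receptor of adenosine, levels were 12.8 and 15.4 CPM in effector and 30 and 28.6 CPM in naive libraries (log2 fold change -1.05 ± 0.17 SE, adjusted p = 0.000412). Ramp3, a subunit of calcitonin family receptors, also fell, with 33.5 and 43.2 CPM in effector and 72.5 and 63.2 CPM in naive libraries at 27.2 kb (log2 fold change -0.82 ± 0.14 SE, adjusted p = 0.000857).

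Chemokine receptor and migration genes had 23 of 138 regions risen and 7 fallen. Near Rgs1, which dampens chemokine receptor signalling, levels were 50.2 and 35.8 CPM in the effector libraries, against 12.2 and 12.2 CPM in the naive libraries (chr1:144239011-144239724, log2 fold change 1.82 ± 0.19 SE, adjusted p = 1.44e-05). Ccr4, a receptor of type 2 lymphocytes, had 19.1 and 14.3 CPM in effector and 3.44 and 4.4 CPM in naive libraries at 1.2 kb (log2 fold change 2.07 ± 0.26 SE, adjusted p = 6.59e-05). Cxcr4, the receptor that holds cells in bone marrow, had 78.1 and 70.3 CPM in effector and 113 and 111 CPM in naive libraries at 22.1 kb (log2 fold change -0.59 ± 0.13 SE, adjusted p = 0.00418) and fell. Rgs2, the neighbour of Rgs1 on chromosome 1, fell at 28.7 kb, with 9.02 and 10.3 CPM in effector and 23.8 and 20.1 CPM in naive libraries (log2 fold change -1.18 ± 0.19 SE, adjusted p = 0.000545), so the regions at these neighbours moved in opposite directions. Integrins and adhesion genes had 28 of 170 risen, 12 of them kept, and 5 fallen. With assignment within 20 kb 16 of 143 rose, a share like that of all regions. Itgae, the CD103 chain that binds epithelial cadherin, had 40.6 and 25.9 CPM in effector and 9.44 and 11.7 CPM in naive libraries (log2 fold change 1.64 ± 0.21 SE, adjusted p = 8.47e-05). Itga1, the collagen receptor chain CD49a, had 14.3 and 7.33 CPM in effector and 1.6 and 1.06 CPM in naive libraries at 11.8 kb (log2 fold change 3.04 ± 0.39 SE, adjusted p = 7.93e-05).

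The signalling lists with the highest shares of rises were PI3K, AKT and mTOR (54 of 273, 19.8%, 23 kept) and calcium entry and NFAT (53 of 309, 17.2%, 13 kept). Falls numbered 13 and 5. Without effector replicate 1 the rises were 25 and 14, and without naive replicate 1 they were 32 and 28. Pik3ca, the catalytic subunit p110 alpha, had 26.2 and 18 CPM in the effector libraries, against 4 and 2.82 CPM in the naive libraries (chr3:32437239-32438811, log2 fold change 2.71 ± 0.27 SE, adjusted p = 1.1e-05). Irs2, an adaptor of insulin and IL-4 receptors, had 50.8 and 37.6 CPM in the effector libraries, against 12.9 and 14.1 CPM in the naive libraries (log2 fold change 1.71 ± 0.17 SE, adjusted p = 1.26e-05). Igf1r, the receptor of insulin-like growth factor, fell inside the gene, with 30.8 and 35 CPM in effector and 59.1 and 62.5 CPM in naive libraries (log2 fold change -0.89 ± 0.14 SE, adjusted p = 0.000423). Itpr1 held the strongest call of the calcium list, with 52.7 and 38.8 CPM in the effector libraries, against 4.72 and 7.05 CPM in the naive libraries (chr6:108337673-108339144, log2 fold change 2.94 ± 0.21 SE, adjusted p = 1.43e-06), and another intragenic region that fell, with 17.3 and 20.7 CPM in effector and 41 and 39.6 CPM in naive libraries (log2 fold change -1.08 ± 0.17 SE, adjusted p = 0.000348). Itpr2 had 17.1 and 16.2 CPM in effector and 3.36 and 4.05 CPM in naive libraries (log2 fold change 2.16 ± 0.25 SE, adjusted p = 3.72e-05). Camk2d, a calcium-dependent kinase, had 23.3 and 13.1 CPM in effector and 3.12 and 2.7 CPM in naive libraries at 23.8 kb (log2 fold change 2.64 ± 0.3 SE, adjusted p = 3.06e-05). The Camk2d start fell, with 102 and 91.6 CPM in effector and 162 and 134 CPM in naive libraries (log2 -0.61, adjusted p = 0.00795), a call lost with a loess offset, without effector replicate 2 and without naive replicate 1 (adjusted p between 0.0546 and 0.108).

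MAP kinase genes and their inhibitors had 44 of 263 regions risen and 7 fallen. The strongest were at inhibitors. Near Dusp4, a phosphatase of ERK, levels were 35.8 and 22.9 CPM in the effector libraries, against 3.92 and 2.99 CPM in the naive libraries (chr8:34755245-34757225, log2 fold change 3.10 ± 0.26 SE, adjusted p = 3.43e-06). Dusp16, a phosphatase of JNK, had 19.5 and 13.7 CPM in effector and 4.56 and 3.23 CPM in naive libraries (log2 fold change 2.10 ± 0.3 SE, adjusted p = 0.000169). Rasa2, a Ras GTPase-activating protein, had 12.3 and 5.67 CPM in effector and 1.04 and 0.822 CPM in naive libraries (log2 fold change 3.27 ± 0.46 SE, adjusted p = 0.000176). Antigen receptor kinases and adaptors, many of which serve other receptors in ILC2s, had 48 of 360 risen and 16 fallen. Ptpn22, a phosphatase that opposes SRC family kinases, had 39.1 and 38 CPM in effector and 9.92 and 11.4 CPM in naive libraries (log2 fold change 1.85 ± 0.19 SE, adjusted p = 1.22e-05). Sla, an adaptor that lowers receptor levels, had 54.9 and 42.6 CPM in effector and 19.3 and 19.8 CPM in naive libraries (log2 fold change 1.32 ± 0.17 SE, adjusted p = 8.85e-05). Falls lay at Tec, a TEC family kinase (26.1 and 32.5 CPM in effector and 48 and 54.5 CPM in naive libraries, log2 -0.81, adjusted p = 0.00114), and 24.1 kb from Lcp2, the adaptor SLP-76 (5 and 8.36 CPM in effector and 14.7 and 16 CPM in naive libraries, log2 -1.20, adjusted p = 0.00213).

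JAK, STAT and SOCS genes had 21 of 141 regions risen and 9 fallen. Stat4 had 20 and 20.7 CPM in effector and 5.76 and 5.64 CPM in naive libraries (log2 fold change 1.83 ± 0.22 SE, adjusted p = 4.2e-05), Stat3 had 31.7 and 26.6 CPM in effector and 11.4 and 9.57 CPM in naive libraries (log2 fold change 1.48 ± 0.19 SE, adjusted p = 8.5e-05), and the feedback inhibitor Socs1 fell at 10.7 kb, with 46.7 and 48.3 CPM in effector and 72.3 and 76 CPM in naive libraries (log2 fold change -0.64 ± 0.12 SE, adjusted p = 0.00192). NF-kB genes had 20 of 209 risen (9.57%) and 4 fallen (1.91%), with a median of -0.04, so this pathway of the IL-33 receptor had no more rises than all regions. Its strongest region, at the NF-kB inhibitor Tnip2, had 42 and 21.5 CPM in effector and 4.56 and 4.4 CPM in naive libraries (log2 fold change 2.82 ± 0.29 SE, adjusted p = 2.82e-05). Irak2, a kinase below IL-1 family receptors, had 18.4 and 16.8 CPM in effector and 6.88 and 6.99 CPM in naive libraries (log2 fold change 1.34 ± 0.22 SE, adjusted p = 0.000523). Ikbkb, the kinase IKK beta, had 11.4 and 8.13 CPM in effector and 2 and 2.11 CPM in naive libraries (log2 fold change 2.24 ± 0.33 SE, adjusted p = 0.000273). TGF-beta, activin and BMP genes had the fewest rises among signalling lists, 14 of 202 (6.93%).

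Wnt, Notch and semaphorin lists stood near the background, with 11.4%, 12.4% and 12.8% risen. Single regions in them changed strongly. Near Frzb, a secreted Wnt antagonist, levels were 21.1 and 18.2 CPM in the effector libraries, against 1.44 and 1.29 CPM in the naive libraries (chr2:80461659-80462853, log2 fold change 3.84 ± 0.29 SE, adjusted p = 1.43e-06). Near Sema7a, a membrane-bound semaphorin that binds integrins, they were 17.1 and 9.85 CPM in effector and 0.48 and 0.705 CPM in naive libraries, on 18 naive counts (log2 fold change 4.46 ± 0.47 SE, adjusted p = 2.19e-05). Maml2, a coactivator of Notch, had 27.8 and 25.8 CPM in effector and 8.56 and 7.98 CPM in naive libraries (log2 fold change 1.70 ± 0.2 SE, adjusted p = 3.45e-05). Adam17, the protease that sheds TNF and cuts Notch, fell at 4.5 kb, with 15.6 and 15.9 CPM in effector and 30.9 and 26.8 CPM in naive libraries (log2 -0.87, adjusted p = 0.00153).

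Among transcription factors, the ILC2 lineage and effector list had 53 of 335 regions risen and 13 fallen. A region 22.5 kb from Pparg, a nuclear receptor that favours type 2 cytokine output and lipid uptake in ILC2s, had 20.7 and 16.5 CPM in the effector libraries, against 2 and 2.88 CPM in the naive libraries (chr6:115512868-115513986, log2 fold change 2.91 ± 0.28 SE, adjusted p = 8.5e-06). Tcf7, the HMG-box factor TCF-1 needed for ILC2 development, had 28.2 and 25.1 CPM in effector and 6.16 and 6.69 CPM in naive libraries inside the gene (log2 fold change 2.05 ± 0.21 SE, adjusted p = 1.16e-05). Falls lay inside Nfia, with 3.44 and 5.21 CPM in effector and 12.1 and 12.1 CPM in naive libraries (log2 -1.48, adjusted p = 0.00137), and 47 kb from Lmo4, with 23 and 31.5 CPM in effector and 46.5 and 48.9 CPM in naive libraries (log2 -0.81, adjusted p = 0.00192). The most open regions of Gata3 and Rora, factors that set ILC2 identity, were not called. The Gata3 start had 112 and 97.9 CPM in effector and 99.7 and 108 CPM in naive libraries (log2 0.02, adjusted p = 0.947), and the most open Rora region had 180 and 136 CPM in effector and 199 and 161 CPM in naive libraries (log2 -0.19, adjusted p = 0.552).

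ETS, RUNX and Ikaros genes had 55 of 326 regions risen, 26 of them kept, and 8 fallen, with a median of 0.18. Ikzf2, which encodes Helios, had 18 and 20.8 CPM in the effector libraries, against 2.72 and 1.17 CPM in the naive libraries (chr1:69543921-69545344, log2 fold change 3.36 ± 0.32 SE, adjusted p = 9e-06). Ets1 had 22.6 and 14.4 CPM in effector and 3.28 and 3.52 CPM in naive libraries at 7.3 kb (log2 fold change 2.44 ± 0.28 SE, adjusted p = 3.21e-05). AP-1 and related bZIP genes had 35 of 207 risen (16 kept) and 16 fallen (none kept), with a median of -0.04. Atf3, an ATF family repressor induced by stress, had 65.1 and 63.7 CPM in effector and 35 and 33.1 CPM in naive libraries at 6.1 kb (log2 fold change 0.92 ± 0.15 SE, adjusted p = 0.000426), and a region 69.3 kb from Cebpb had 14.2 and 16.1 CPM in effector and 4.88 and 4.87 CPM in naive libraries (log2 fold change 1.64 ± 0.26 SE, adjusted p = 0.000397). Immediate early genes had rises and falls too, with 27 risen and 9 fallen of 164. Ier5 had 35.6 and 27.8 CPM in effector and 13.8 and 14 CPM in naive libraries at 8.2 kb (log2 1.19, adjusted p = 0.000326).

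Nuclear receptors and glucocorticoid targets had 34 of 228 regions risen. Fkbp5, a glucocorticoid-induced chaperone of the glucocorticoid receptor, had 17.7 and 13.3 CPM in effector and 4 and 3.87 CPM in naive libraries (log2 fold change 1.97 ± 0.27 SE, adjusted p = 0.000154), and the coactivator Ncoa2 had 36.2 and 32.3 CPM in effector and 11.6 and 11.6 CPM in naive libraries (log2 fold change 1.56 ± 0.17 SE, adjusted p = 2.35e-05). The circadian clock had as many falls as rises, 7 each of 79. Arntl, which encodes the clock activator BMAL1, had 5.45 and 3.61 CPM in effector and 0.72 and 0.763 CPM in naive libraries (log2 2.59, adjusted p = 0.00177), and its partner gene Npas2 fell at 69.6 kb, with 12.5 and 13.3 CPM in effector and 21.9 and 24.2 CPM in naive libraries (log2 -0.84, adjusted p = 0.00348). Quiescence and E protein genes had 41 of 251 risen. Btg1, an antiproliferative factor of resting lymphocytes, had 21.2 and 11.9 CPM in effector and 2 and 2.05 CPM in naive libraries at 10.6 kb (log2 fold change 3.02 ± 0.33 SE, adjusted p = 2.14e-05). Zeb2, a zinc finger repressor, had 24.5 and 19.8 CPM in effector and 7.28 and 6.93 CPM in naive libraries at 25.8 kb (log2 1.64, adjusted p = 8.09e-05). Klf13 fell inside the gene, with 38.2 and 35.6 CPM in effector and 61.9 and 59.9 CPM in naive libraries (log2 -0.72, adjusted p = 0.00334).

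The list of SWI/SNF, the complexes of Brg1 named in the study's title, and of other remodellers had 18 of 223 regions risen (8.07%) and 8 fallen. The rises included an intragenic region of Arid1b, a SWI/SNF subunit, with 8.7 and 6.87 CPM in effector and 1.92 and 2.05 CPM in naive libraries (log2 fold change 1.96 ± 0.34 SE, adjusted p = 0.000809), and of the remodeller Chd2, with 22.3 and 16.2 CPM in effector and 5.04 and 4.58 CPM in naive libraries (log2 fold change 2.00 ± 0.28 SE, adjusted p = 0.000156). Histone and DNA modifying enzymes had 46 of 296 risen and 19 fallen. Rises in the remodeller list numbered 4 without effector replicate 1 and 12 without naive replicate 1, and those in the enzyme list 15 and 22. A difference between the lists was not tested. Near Ezh2 and Eed, a catalytic and a core subunit of Polycomb complex 2, levels were 23.9 and 20.2 CPM in effector and 5.84 and 7.4 CPM in naive libraries (log2 1.73, adjusted p = 7.67e-05) and 18.6 and 13.2 CPM in effector and 2.32 and 2.82 CPM in naive libraries (log2 2.61, adjusted p = 1.6e-05). Hdac4, a histone deacetylase moved by calcium signals, had 27.2 and 21.6 CPM in effector and 5.28 and 6.22 CPM in naive libraries (log2 2.08, adjusted p = 2.22e-05). Kdm6a, an X-linked H3K27 demethylase, had 5 of 12 regions fallen, none of which kept its call in every setting.

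Chemokine genes had 14 of 62 regions risen (3 kept), extracellular matrix and protease genes 32 of 152 (14 kept, median 0.29), and cytokines and growth factors 22 of 121 (10 kept). The chemokine count was 4 without effector replicate 1 and 4 without naive replicate 1, where rises over all regions were 2530 and 4014. The matrix and protease count was 15 without effector replicate 1 and 28 without naive replicate 1. A region 44.1 kb from Col18a1, the basement membrane collagen, had 40.2 and 31.6 CPM in the effector libraries, against 2.96 and 4.64 CPM in the naive libraries (chr10:77210652-77211967, log2 fold change 3.21 ± 0.24 SE, adjusted p = 1.47e-06). Anxa2, which assembles plasmin at the cell surface, had 52.2 and 44.2 CPM in the effector libraries, against 15.3 and 16.6 CPM in the naive libraries inside the gene (chr9:69457548-69458773, log2 fold change 1.59 ± 0.17 SE, adjusted p = 1.62e-05). The Ctsl start, of cathepsin L, fell, with 44.2 and 45.9 CPM in effector and 77.6 and 68.4 CPM in naive libraries (log2 fold change -0.70 ± 0.15 SE, adjusted p = 0.00337). Near Il10 levels were 10.7 and 14.2 CPM in effector and 2.4 and 3.7 CPM in naive libraries (log2 fold change 2.01 ± 0.29 SE, adjusted p = 0.000215), and near Csf2, which encodes GM-CSF, 37 and 23.9 CPM in effector and 11.2 and 11.6 CPM in naive libraries (log2 fold change 1.41 ± 0.21 SE, adjusted p = 0.000236). At 36.5 kb from Il33, the alarmin itself, they were 10.2 and 7.79 CPM in effector and 0.64 and 1.29 CPM in naive libraries (log2 fold change 3.16 ± 0.42 SE, adjusted p = 8.89e-05). Xcl1 had 11.6 and 7.79 CPM in effector and 0.64 and 1.47 CPM in naive libraries at 51.8 kb (log2 3.14, adjusted p = 0.000857). Cxcl5 had 5.52 and 4.29 CPM in effector and 1.2 and 0.939 CPM in naive libraries at 12.5 kb (log2 2.20, adjusted p = 0.0013).

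Metabolic lists had rises at or under the share of all regions. Glycolysis had 8 of 116 regions risen (6.9%), mitochondria 5 of 70 (7.14%), lipid handling 15 of 133 (11.3%), and arginine, polyamine and amino acid genes 11 of 130 (8.46%). Pfkfb3, whose product speeds glycolysis, had 41.7 and 34.9 CPM in effector and 21 and 19.3 CPM in naive libraries (log2 fold change 0.92 ± 0.17 SE, adjusted p = 0.00121). Hif1a, the hypoxia factor, had 15.8 and 18.6 CPM in effector and 5.28 and 7.81 CPM in naive libraries at 11.9 kb (log2 fold change 1.38 ± 0.25 SE, adjusted p = 0.00124). Plin2, the coat protein of lipid droplets, had 15.4 and 19.2 CPM in effector and 7.28 and 6.58 CPM in naive libraries at 9.1 kb (log2 fold change 1.33 ± 0.23 SE, adjusted p = 0.000856). Slc25a1, the mitochondrial citrate carrier, had 42.5 and 35.6 CPM in effector and 16.4 and 20.1 CPM in naive libraries at 20.4 kb (log2 fold change 1.09 ± 0.17 SE, adjusted p = 0.000399). The cholesterol exporter Abca1 moved both ways. Its start fell, with 40 and 46 CPM in effector and 81.1 and 63.2 CPM in naive libraries (log2 -0.74, adjusted p = 0.00331), a call lost without effector replicate 1 or naive replicate 1 (adjusted p = 0.0639 and 0.0588), and a region 21.4 kb off rose, with 8.5 and 6.18 CPM in effector and 0.8 and 1.35 CPM in naive libraries (log2 2.73, adjusted p = 0.000486).

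Cell cycle genes had 17 of 158 regions risen (10.8%). Cdk6, a kinase of early G1, had 65.9 and 41 CPM in the effector libraries, against 15.4 and 17.6 CPM in the naive libraries inside the gene (chr5:3494103-3495450, log2 fold change 1.69 ± 0.2 SE, adjusted p = 4.39e-05). Ccne1, cyclin E1, had 10.4 and 11.1 CPM in effector and 1.36 and 2.94 CPM in naive libraries at 26.3 kb (log2 2.29, adjusted p = 0.000353). BCL2 family and cell death genes had 27 of 136 risen (19.9%) and 5 fallen. Regions nearest to survival genes and to death genes rose. Bcl2, which blocks apoptosis, had 19.3 and 14.8 CPM in effector and 4.72 and 4.52 CPM in naive libraries (log2 fold change 1.88 ± 0.26 SE, adjusted p = 0.000126). Bcl2l11, the killer BIM, had 13 and 12.3 CPM in effector and 2.4 and 3.93 CPM in naive libraries at 66.6 kb (log2 fold change 1.97 ± 0.3 SE, adjusted p = 0.000342). A region of Tnfrsf10b, the TRAIL receptor, fell, with 106 and 110 CPM in effector and 168 and 159 CPM in naive libraries (log2 -0.60, adjusted p = 0.00295). RNA decay and microRNA pathway genes had 24 of 121 risen (5 kept) and none fallen. Ago2, the slicing Argonaute, had 59.8 and 39.9 CPM in effector and 20.3 and 18.8 CPM in naive libraries (log2 fold change 1.35 ± 0.19 SE, adjusted p = 0.000254). Zc3h12c, of the Regnase family of RNases, had 9.02 and 7.9 CPM in effector and 0.8 and 0.881 CPM in naive libraries at 19.2 kb (log2 fold change 3.31 ± 0.38 SE, adjusted p = 3.02e-05).

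Housekeeping, interferon response and secretory pathway genes had rises in 6.58%, 9.59% and 8.8% of regions and falls in 5.26%, 4.11% and 6.4%. The balance of the interferon list turned to 3 rises and 5 falls without effector replicate 2 and to 1 and 2 without naive replicate 1, and that of the housekeeping list to 5 and 6 without naive replicate 2.

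Beside Itpr1, whose fall given above kept its call under every setting, several genes above with a rise also held a region that fell. None of the falls given in this paragraph kept its call under every setting. Ikzf2 had 30.1 and 36.1 CPM in effector and 55.8 and 53.7 CPM in naive libraries at 4.3 kb (log2 -0.72, adjusted p = 0.00235), Irs2 had 28.9 and 40.1 CPM in effector and 56.1 and 56.3 CPM in naive libraries at 37.8 kb (log2 -0.70, adjusted p = 0.00658), and Cdk6 had 9.47 and 9.51 CPM in effector and 17.4 and 16.8 CPM in naive libraries at 75.1 kb (log2 -0.85, adjusted p = 0.00616). These 3 falls were lost without effector replicate 1, with adjusted p of 0.0526, 0.124 and 0.0559. Falls also lay at Itpr2 (log2 -0.53, adjusted p = 0.0116), Tcf7 (log2 -0.66, adjusted p = 0.0169), Ncoa2 (log2 -0.67, adjusted p = 0.0141), Chd2 (log2 -0.74, adjusted p = 0.00971) and Bcl2 (log2 -1.36, adjusted p = 0.0149). Each was lost under 3 or more settings, among them the fit without effector replicate 1, with adjusted p between 0.0754 and 0.198 there.

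Regions beside microRNA genes had rises in a smaller share than all regions. Of 612 tested regions within 5 kb of a hairpin 35 rose (5.72%) and 21 fell (3.43%), against 11.5% and 4.98% over all regions. The 3 hairpins chosen after their values were seen are shown by a mature strand from RefSeq (GRCm38.p6), with the seed, bases 2 to 8, in capitals.
mmu-miR-21a-5p (chr11:86584120-86584141, - strand): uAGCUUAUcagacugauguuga
mmu-miR-22-3p (chr11:75463772-75463793, + strand): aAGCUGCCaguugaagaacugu
mmu-miR-223-3p (chrX:96242884-96242905, + strand): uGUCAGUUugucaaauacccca
The seeds differ, so the 3 belong to different families. Of 3 regions beside Mir21a, the microRNA of activated lymphocytes, 2 rose. They had 69.2 and 43.4 CPM in effector and 30.6 and 29.7 CPM in naive libraries (chr11:86580528-86583129, log2 fold change 0.90 ± 0.18 SE, adjusted p = 0.00343), a call lost without effector replicate 1 (adjusted p = 0.0955), and 37.4 and 35.2 CPM in effector and 20.7 and 22.0 CPM in naive libraries (chr11:86577120-86579369, log2 fold change 0.76 ± 0.15 SE, adjusted p = 0.0022). Mir22 had 22.4 and 21.7 CPM in effector, against 11.5 and 11.5 CPM in naive libraries, in 1 of 3 regions (chr11:75458692-75459006, log2 fold change 0.94 ± 0.19 SE, adjusted p = 0.00241). Mir223, best known from myeloid cells, had 1.3 and 2.69 CPM in effector, against 5.6 and 8.16 CPM in naive libraries (chrX:96239038-96240521, log2 fold change -1.78 ± 0.36 SE, adjusted p = 0.00298), a call lost without effector replicate 1 (adjusted p = 0.0625).

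The sort was checked with marker genes of ILC2s and of other cells. All 10 ILC2 markers had a tested region, and their regions summed to 4764 and 4069 CPM in effector libraries, against 4253 and 3975 CPM in naive libraries, with 26 of 168 risen and 2 fallen. The most open Klrg1 region, of a receptor that marks mature ILC2s, rose, with 84.2 and 66.5 CPM in effector and 42.8 and 45.5 CPM in naive libraries (log2 0.77, adjusted p = 0.00223), a call lost without effector replicate 1 (adjusted p = 0.0604). T cell markers, which include genes that ILC2s also open, summed to 82.6 and 96.7 CPM in effector and 98.4 and 108 CPM in naive libraries, with none of 7 regions called. The most open of them lay at Cd3d, with 66.6 and 78.3 CPM in effector and 80.6 and 88.4 CPM in naive libraries (log2 -0.22, adjusted p = 0.27). B cell markers summed to 40.6 and 41.7 CPM in effector and 31.1 and 27.7 CPM in naive libraries, with 2 of 10 regions risen. Myeloid markers summed to 67.6 and 58.4 CPM in effector and 60.6 and 53.1 CPM in naive libraries, with 3 of 10 regions risen. NK cell and ILC1 markers summed to 242 and 224 CPM in effector and 282 and 235 CPM in naive libraries, and ILC3 markers to 50.4 and 50.5 CPM in effector and 36.7 and 43.8 CPM in naive libraries, with 1 of 16 and 2 of 6 regions risen. Lung epithelial, endothelial and stromal markers summed to 278 and 272 CPM in effector and 253 and 247 CPM in naive libraries, with 5 of 34 regions risen. For comparison, 11.5% of all tested regions rose and 4.98% fell. No region of the T cell, B cell, myeloid, NK and ILC1, ILC3 or lung markers fell in these sets, which are shorter than the plotted lists. The plotted lists did hold falls, at 3 of 43 T cell and 4 of 37 NK cell and ILC1 regions. There 1 of 17 ILC3 and 1 of 68 lung regions also fell. In the plotted lists no B cell or ILC3 rise kept its call under every setting. There 1 T cell rise, 1 NK cell and ILC1 rise, 2 myeloid rises and 3 lung rises kept it, as did 1 NK cell and ILC1 fall. Mast cell and basophil markers summed to 369 and 380 CPM in effector libraries, against 459 and 461 CPM in naive libraries, with 4 of 25 regions fallen and 1 risen. No tested region lay nearest to Cd8a, Trac, Cd79a, Ms4a1, Ncr1, Il23r, Csf1r, Lyz2, Fcer1a, Mcpt8 or Sftpc. Gains near genes of other lineages did occur. Cd200r3, a basophil receptor, had 9.67 and 8.07 CPM in effector and 0.88 and 2.05 CPM in naive libraries (log2 2.55, adjusted p = 0.000274), and the start of the cytotoxic protease Gzmb had 5.06 and 5.5 CPM in effector and 1.12 and 1.53 CPM in naive libraries (log2 1.98, adjusted p = 0.00224). Near Ifng, a type 1 cytokine, a region 20.7 kb off fell, with 27.4 and 30.9 CPM in effector and 49.6 and 48.7 CPM in naive libraries (log2 -0.75, adjusted p = 0.00126). Another 12.6 kb off rose, with 9.47 and 8.3 CPM in effector and 2.08 and 5.05 CPM in naive libraries (log2 1.29, adjusted p = 0.0174), a call lost without effector replicate 1 or naive replicate 1 (adjusted p = 0.134 and 0.187). What other cells in the gate add to any result was not tested.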

How the data were processed

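The authors' table gives whole-number counts for 57203 regions in 6 ATAC-seq libraries, used here as deposited. Aligner and peak caller are named as Bowtie2 2.5.3 and MACS2 in the submitters' processing notes, with mm10 as the build. The same notes name fastp and bedtools 2.31.1, and edgeR 3.34.0 as the authors' own version. How regions were merged, what was counted, whether insertions were shifted, and which duplicate filters applied is not given in the sources used here. Effector libraries totalled 14872821 and 16397249 counts, and naive libraries 12964912 and 16910329. Each library is a separate pool of mice.

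Regions were filtered with filterByExpr (56007 kept, 1196 removed), scaled by TMM and fitted with edgeR 4.0.16 under R 4.3.3 (quasi-likelihood, robust, a term per group, all 6 libraries, 3 residual degrees of freedom). The effector minus naive contrast was tested two-sided, with Benjamini-Hochberg adjustment over all tested regions. An SE is the log2 fold change over the square root of F. The median biological coefficient of variation was 19%. On simulated counts with 200 of 56007 regions changed, 39 of 100 changed 2-fold and 87 of 100 changed 4-fold were called, with 21 false calls. Alternatives were RLE factors, total counts, TMM on the 20% most open regions, a loess offset (span 0.3), no filter, no robust estimation, the 4 libraries alone, a replicate block, each library left out, DESeq2 1.42.0, an adjusted p under 0.01 and a 2-fold minimum.

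Nearest genes came from 21900 protein-coding genes of GRCm38.p6. Starts and promoters came from a RefSeq table that holds a start for 17492 of them and none on chromosome 18, so some starts were counted as inside or outside a gene. Lists, words and the comparison were chosen with earlier results of these data known. The text names the regions with the largest change in CPM, genes with the most called regions, starts with the smallest adjusted p, the largest folds (rises with at least 20 naive counts) and up to 3 genes per list and direction with the smallest adjusted p. Preference for calls kept in all settings, and the printed promoters, were chosen after values were seen. Some genes and a gene list are not reported here.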

Additional observations from a re-analysis of the deposited data

How the results depend on the processing

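With TMM on the 20% most open regions 739 regions fell, and starts had 433 rises and 140 falls. Falls numbered 1538 with total counts and 1686 with a loess offset, and 447 and 170 at starts. An adjusted p under 0.01 gave 3746 rises and 740 falls, with 82 and 173 at starts. A 2-fold minimum gave 387 falls, with 142 rises and 10 falls at starts. Leaving out each library in turn gave 2530 to 4878 rises and 377 to 2051 falls, and at starts 44 to 152 rises and 89 to 641 falls. The cause was not tested. Same-numbered libraries were not treated as pairs, since there are only 2 and the labels do not say what a number shares (deviations of effector 1 and naive 1 correlated with r = 0.24). A replicate block gave 8765 rises and 6555 falls, with 409 and 2417 at starts. These totals moved by less than 1.5 times with RLE factors, DESeq2, no filter, no robust estimation and the 4 libraries alone. No named region that rose or fell changed direction in any setting. Regions named as not called were not checked for this. The order of the lists changed with assignment within 20 kb, where 51 of 249 PI3K, AKT and mTOR regions rose, 22 of 112 of the BCL2 family, 8 of 42 of chemokines and 25 of 137 of matrix and proteases. Other lists came nearer to the 11.5% of all regions. Of integrins and adhesion 16 of 143 rose, of cytokines and growth factors 12 of 87, and of chemokine receptors and migration 12 of 89. Immediate early genes had 12 of 94 risen, and neuropeptide, purine and lipid mediator receptors 16 of 140. With 2 libraries a group, changes near 2-fold were often missed on simulated counts, where far fewer regions changed than were called here. How often they were missed in the data was not tested.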
